A study of Homo sapiens with 6 samples.

Results

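The transcription factor NRF2 and 8 genes of its antioxidant program were followed in xenografts of MDA-MB-231 cells, a line of human breast cancer that is triple-negative. The 9 genes were taken by name from the matrix of 60671 annotated genes, namely NFE2L2 (which encodes NRF2), NQO1, TXNRD1, TXN, GCLC, GCLM, SRXN1, SLC7A11 and PGD, and all 9 had a row. Wild-type cells had been injected into the mammary fat pads of young adult female NSG mice, hosts without T, B or NK cells, and no drug or diet was named for either group. RNA-seq was performed on 3 samples of the tumor core (TC) and 3 of the tumor margin (TM), and each value is in TPM, a level per transcript length scaled to nearly the same sum in each sample. The cells are 1 established line, and the labels do not say which TC and TM samples came from the same mouse, so p-values measure only the spread between these samples.

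NRF2 is held low by KEAP1, which hands it to a CUL3 and RBX1 ubiquitin ligase for degradation. Oxidants and electrophiles modify KEAP1, NRF2 then accumulates, pairs with a small MAF protein and binds antioxidant response elements at its target genes. Control is thus exerted largely on the NRF2 protein, which RNA-seq does not measure, whereas the targets are read out as RNA. The targets serve 4 tasks here: cystine import and glutathione synthesis (SLC7A11, GCLC, GCLM), the thioredoxin system (TXN, TXNRD1, SRXN1), quinone reduction (NQO1) and NADPH supply (PGD).

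The binding element can be shown for members whose promoters hold it. The letters TGACNNNGC (core of the antioxidant response element), and a longer form with an A after them, were searched on both strands from 250 bases before to 50 after each gene start in RefSeq promoters (GRCh38.p14), where 8 of the 9 members matched, with 10 promoters. The longer form was found in 2 of these 8 genes, GCLM and TXNRD1, and in 3.18% of all 35116 promoters. The core without the final A also occurred in PGD and, at 2 further sites not shown, in the first promoter of TXNRD1. Counted by promoter, 4 of the 10 of the members held the core, against 13.3% of all promoters, and 2 of the 10 held the longer form. The sites below are given in the direction of the gene with the matched letters in capitals, which read as the element on the opposite strand, and each lies upstream of the RefSeq start used. GENCODE v29 places the outermost start of all 3 genes further upstream, so the sites are inside the annotated genes or, for GCLM, at their edge. None overlapped TGANTCA, the AP-1 element that resembles it.
GCLM (chr1:93909447-93909474, minus strand): tacgatttcTGCTTAGTCAttgtcttcc
TXNRD1, second of its 2 promoters (chr12:104286920-104286947, plus strand): gtggatttcTGCTTTGTCAttctgactc
PGD (chr1:10398853-10398881, plus strand): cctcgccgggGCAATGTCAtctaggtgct
A match describes the letters only, and it was found in members at high and at low levels in what follows. SLC7A11 was the member without a promoter in this set. Sites outside the window were not searched, so a gene without a match may hold the element elsewhere.

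The libraries were first checked against their labels. The 7 markers of the tumor line, among them VIM, CD44 and KRT18, were present in every sample with a summed level of 5663.68 to 7183.43 TPM, and ESR1 and PGR, the hormone receptors that a triple-negative line lacks, did not exceed 0.22 TPM. ERBB2, the remaining receptor gene of the triple-negative definition, was present in every sample, at 22.3 to 24.1 TPM in TC and 30.8 to 40.7 TPM in TM, with the groups apart. The zones also lay apart in the share of TPM from mitochondrially encoded genes (6.08% to 8.82% in TC, 9.23% to 11.1% in TM) and in the number of genes above 0 TPM (21063 to 21942 in TC, 22678 to 23216 in TM). Markers of skeletal muscle summed to 5.72 to 8.10 TPM in TC, but to 207.65 and 520.11 TPM in TM replicates 1 and 2 and 4.50 TPM in TM replicate 3. Markers of fibroblasts summed to 65.75 to 225.41 TPM in TC and to 91.02 to 1004.96 TPM in TM, again highest in TM replicates 1 and 2. Of these lists 1 of 9 muscle genes and 2 of 8 fibroblast genes stayed below 1 TPM in all samples. Their part in the values of the members was not tested, but the results without the samples concerned are given. The hosts were mice, and no step to separate mouse reads is given in the sources used here. Whether mouse reads entered the values of the markers or of the members was not tested. Fewer cells of a type and less RNA per cell cannot be told apart in bulk samples. Since TPM keeps no depth, counting error is unknown.

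No member was called as different between TC and TM, which does not show that the levels were equal. With a threshold of 0.05 on the adjusted p-value, limma called 0 of 9, against 0.137% of the 13861 genes tested, and 0 of 9 had an unadjusted p-value under 0.05, against 16.2% of all genes. The smallest adjusted p-value among the members was 0.478 (limma). The difference between the zones was below 0 in 6 members and above 0 in 3, with a median of -0.06 on the log2(TPM + 1) scale, while all genes tested had a median of -0.14. This median of all genes depends on the scaling of the samples. After median-of-ratios rescaling, which sets the samples level on their typical gene, it was 0.049, the members' median was 0.14, and 7 members were above and 2 below 0. The share of all genes below 0 was 67.0% before and 43.9% after rescaling. Without the mitochondrially encoded genes the median of all genes was -0.18 and that of the members -0.11, with 0 members called. The part of the number of genes detected in these values was not tested. The summed level of the 9 genes was 736.78 to 832.65 TPM in TC and 691.34 to 810.17 TPM in TM, so the groups overlapped.

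**Figure D1:**
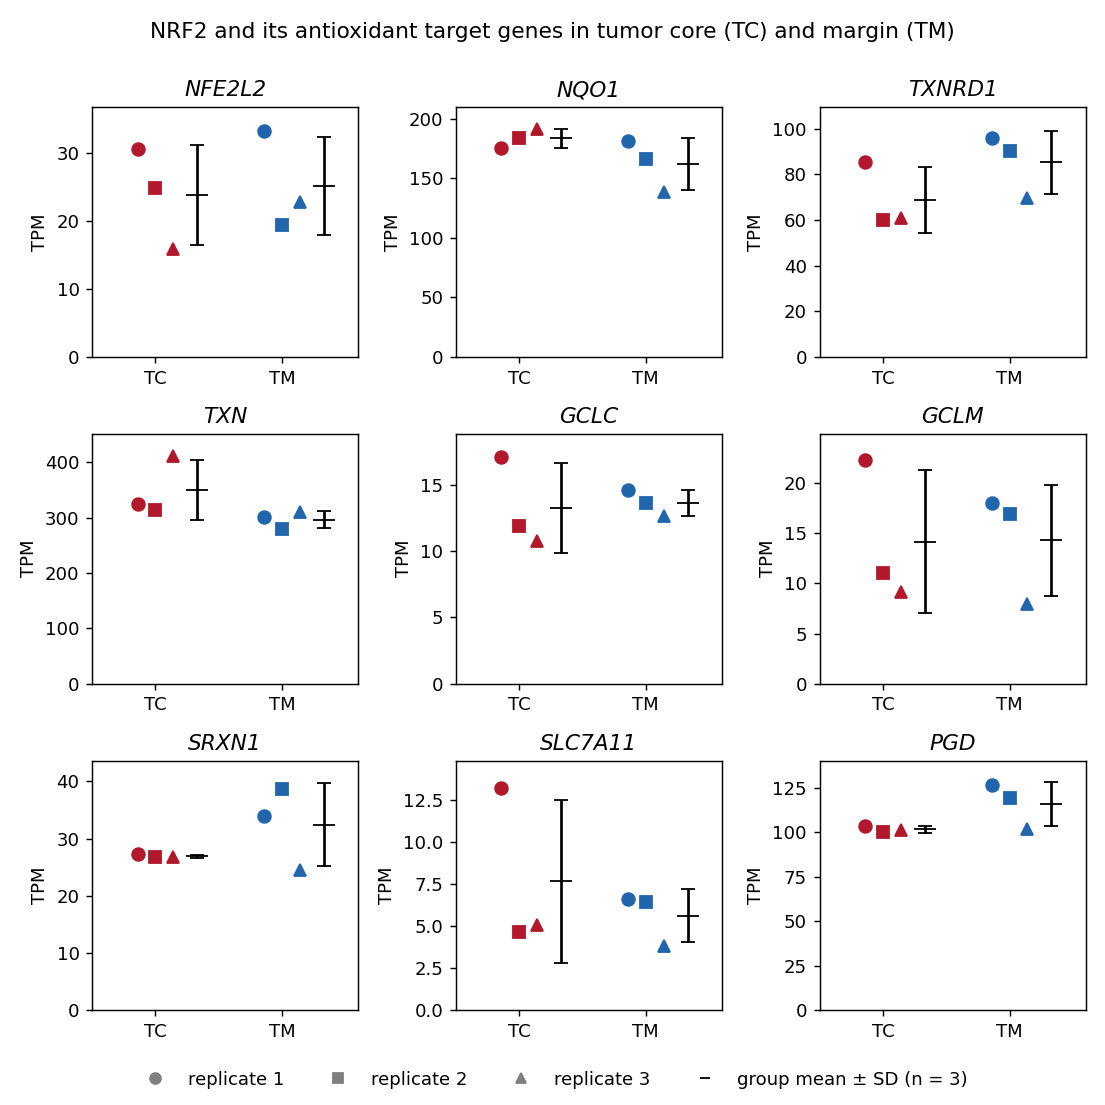
Level of each member in TPM (vertical axes, from 0) in the 3 TC samples (red) and the 3 TM samples (blue), with replicate numbers as shapes and the group mean ± SD (n = 3) beside the points. TXN is the one member whose groups do not overlap, with 313.77 TPM as the lowest TC value and 310 TPM as the highest TM value.

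The regulator itself was considered first. NFE2L2 (ENSG00000116044; chromosome 2, 177227595 to 177392697, minus strand, GENCODE v29 on GRCh38) was at 30.6, 24.8 and 15.9 TPM in TC and reached 33.1, 19.4 and 22.8 TPM in TM (values follow the replicate numbers 1, 2 and 3 here and below). Replicate 1 was the highest of each group, and the groups overlapped over nearly their whole range. The means were 23.8 ± 7.40 and 25.1 ± 7.15 TPM (SD, n = 3), differing by -0.09 in log2 (SE 0.28, adjusted p = 0.916 by limma). The 95% interval of this difference, fitted on log2(TPM + 1), ran from 0.606-fold to 1.46-fold, so changes within these bounds are compatible with the values. AGPS, a gene on the opposite strand whose annotation overlaps that of NFE2L2, was at 7.81 to 25.2 TPM. Reads of the overlap are uncertain unless the counting used strand, and the length of the overlap was not measured.

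Cystine import and glutathione synthesis contained the members with the widest spread. SLC7A11 (ENSG00000151012; chromosome 4, 138164097 to 138242349, minus strand), the cystine transporter chain of system xc-, was at 13.2, 4.67 and 5.08 TPM in TC and at 6.63, 6.44 and 3.83 TPM in TM. TC replicate 1 stood above all 5 other samples, whereas the other TC samples lay within the TM range. The log2 difference was 0.28 (SE 0.38, limma adjusted p = 0.785), with a 95% interval from 0.661-fold to 2.23-fold, and it was -0.15 without TC replicate 1.

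GCLC and GCLM encode the catalytic and the modifier subunit of glutamate-cysteine ligase, the rate-limiting enzyme of glutathione synthesis. GCLC (ENSG00000001084; chromosome 6, 53497341 to 53616970, minus strand) was at 17.1, 11.9 and 10.8 TPM in TC and at 14.6, 13.6 and 12.6 TPM in TM, so that the TM values lay inside the TC range (difference in log2 -0.06 with SE 0.21, adjusted p = 0.925 by limma). GCLM (ENSG00000023909; chromosome 1, 93885205 to 93909456, minus strand) was at 22.3, 11.0 and 9.14 TPM in TC and at 18.0, 16.9 and 7.93 TPM in TM. Each group had high and low samples, with TC replicate 1 and TM replicates 1 and 2 high and the other 3 low. The GCLM means of 14.2 ± 7.13 and 14.3 ± 5.53 TPM (SD, n = 3) were nearly the same (difference in log2 -0.03 with SE 0.39, adjusted p = 0.981 by limma), but the interval was wide, from 0.529-fold to 1.81-fold. The direction of NFE2L2, GCLC and GCLM turned with the scaling, to 0.11, 0.14 and 0.16 after median-of-ratios rescaling, and so did that of PGD, to 0.026.

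The thioredoxin system was next. TXN (ENSG00000136810; chromosome 9, 110243811 to 110256640, minus strand), the small disulfide reductase thioredoxin, was at 324, 314 and 412 TPM in TC and at 300, 280 and 310 TPM in TM. All TC values were above all TM values, though by a narrow margin, and TC replicate 3 was the highest. A TC group wholly above the TM group was found in 1 of 9 members and in 3.28% of all genes, and groups apart in either direction in 22.2% of all genes. The TXN means were 349.8 ± 53.7 and 297 ± 15.5 TPM (SD, n = 3), differing by 0.23 in log2 (SE 0.14, adjusted p = 0.479 by limma; 95% interval 0.941-fold to 1.46-fold). Without TC replicate 3 the TXN difference was 0.11.

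TXNRD1 (ENSG00000198431; chromosome 12, 104215779 to 104350305, plus strand), the NADPH-dependent reductase that recharges thioredoxin, had the opposite sign. Its levels were 85.4, 59.95 and 60.9 TPM in TC and 95.8, 90.3 and 69.6 TPM in TM. TC replicates 2 and 3 were the lowest of all samples, and TC replicate 1 lay within the TM range. The log2 difference was -0.31 (SE 0.19, limma adjusted p = 0.478; 95% interval 0.597-fold to 1.09-fold). SRXN1 (ENSG00000271303; chromosome 20, 646615 to 653370, minus strand), sulfiredoxin, which restores overoxidized peroxiredoxins, was at 27.2, 26.7 and 26.8 TPM in TC and at 34.0, 38.7 and 24.6 TPM in TM. The TC samples were almost equal, with an SD of 0.267 TPM, and TM replicate 3 was below them while the other TM samples were above (difference in log2 -0.24 with SE 0.19, adjusted p = 0.604 by limma). With TM replicate 3 alone as the margin, the SRXN1 difference was 0.13 in place of -0.24.

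NQO1 (ENSG00000181019; chromosome 16, 69706996 to 69726951, minus strand), the quinone reductase often used as a readout of NRF2, was at 175, 184 and 191 TPM in TC and at 181, 166 and 138 TPM in TM. Only TM replicate 1 reached into the TC range. The means were 183 ± 8.14 and 162 ± 21.9 TPM (SD, n = 3), differing by 0.19 in log2 (SE 0.13, adjusted p = 0.563 by limma; 95% interval 0.920-fold to 1.41-fold), and by 0.078 without TM replicate 3. PGD (ENSG00000142657; chromosome 1, 10398592 to 10420144, plus strand), phosphogluconate dehydrogenase of the pentose phosphate pathway, was at 104, 99.99 and 101 TPM in TC and at 126, 119 and 102 TPM in TM. TM replicates 1 and 2 were above the TC samples and the third TM sample lay among them (difference in log2 -0.18 with SE 0.13, adjusted p = 0.548 by limma). The sign turned on median-of-ratios rescaling, but not on quantile normalization (-0.11).

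After median-of-ratios rescaling, 2 members had an unadjusted p-value under 0.05, both higher in TC, against 6.81% of all genes in that direction. They were NQO1 (log2 difference 0.40, limma unadjusted p = 0.0278, adjusted p = 0.312) and TXN (0.44, unadjusted p = 0.0462, adjusted p = 0.358), and neither was called, as against 0.0433% of all genes called after this rescaling. With quantile normalization 0 members were under 0.05 (limma unadjusted p = 0.0746 for NQO1 and 0.216 for TXN).

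**Figure D2:**
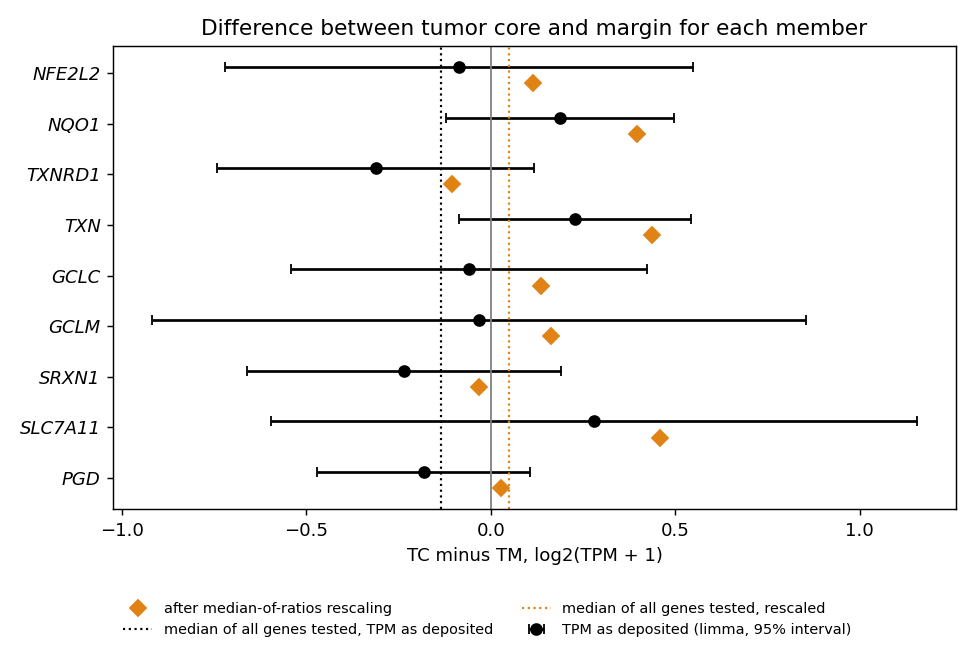
Difference between TC and TM for each member on the log2(TPM + 1) scale (horizontal axis), from TPM as deposited with its 95% interval (black, n = 3 per group) and after median-of-ratios rescaling (orange), with dotted lines at the median of all genes tested. All 9 intervals include 0, and the rescaled points lie to the right of the others.

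The levels of the members themselves were far apart, and this order held in both zones for the abundant ones. TXN (280 to 412 TPM over all samples) was above NQO1 (138 to 191 TPM), which was above PGD (99.99 to 126 TPM), which was above TXNRD1 (59.95 to 95.8 TPM), with no overlap between any neighbours. SRXN1 (24.6 to 38.7 TPM) and NFE2L2 (15.9 to 33.1 TPM) overlapped, as did NFE2L2 and GCLM and, at the next step, GCLM and GCLC. SLC7A11 was the lowest of the 9 in every sample. By its mean TPM, TXN was at percentile 97.1 of the genes tested, NQO1 at 94.7, GCLC at 52.7 and SLC7A11 at 35.7.

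The spread among samples differed between members. The ratio of the highest to the lowest of the 6 samples was 3.45 for SLC7A11, 2.81 for GCLM and 2.08 for NFE2L2, but 1.26 for PGD, 1.39 for NQO1 and 1.47 for TXN. TC replicate 1 and TM replicate 1 were each the highest sample of 3 members, and TM replicate 3 was the lowest of 4. SLC7A11, GCLC and GCLM were highest in TC replicate 1, whereas NFE2L2, TXNRD1 and PGD were highest in TM replicate 1.

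**Figure D3:**
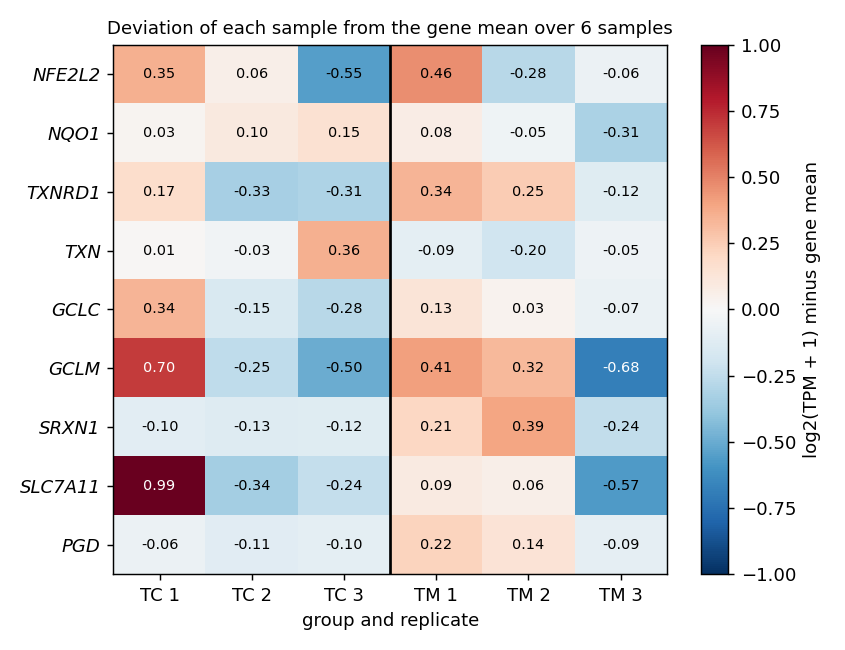
Deviation of each sample (columns) from the mean of each member (rows) over the 6 samples on the log2(TPM + 1) scale, red above and blue below the mean. SLC7A11 and GCLM are the most uneven rows, at 0.99 and 0.70 in TC replicate 1 and -0.57 and -0.68 in TM replicate 3.

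To compare partners without any effect of scaling, 5 ratios were taken within each sample. TXN to TXNRD1, thioredoxin over its reductase, came to 3.79, 5.23 and 6.76 in TC and to 3.13, 3.09 and 4.46 in TM. TC replicates 2 and 3 were above all TM samples, and TC replicate 1 was not. The log2 ratio averaged 2.36 ± 0.418 in TC against 1.81 ± 0.298 in TM (SD, n = 3; p = 0.2 by a two-sided exact permutation test, adjusted p = 0.5 over 5 ratios). In this design no p-value can be below 0.1. TXNIP, which binds and inhibits thioredoxin, gave a ratio to TXN of 0.272, 0.148 and 0.114 in TC and 0.159, 0.283 and 0.305 in TM (log2 difference -0.53, exact permutation p = 0.2, adjusted p = 0.5). Replicate 1 of each zone fell inside the range of the other zone. Both differences were smallest without TC replicate 3, at 0.34 for TXN to TXNRD1 and -0.25 for TXNIP to TXN, and largest without TC replicate 1, at 0.76 and -0.88.

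The remaining ratios differed less. GCLM to GCLC, modifier over catalytic subunit, came to 1.31, 0.928 and 0.849 in TC and to 1.23, 1.24 and 0.629 in TM (log2 difference 0.032, exact permutation p = 0.8). SLC7A11 to SLC3A2, its heavy-chain partner, came to 0.115, 0.0407 and 0.0423 in TC and to 0.0567, 0.0468 and 0.0290 in TM (log2 difference 0.45, exact permutation p = 0.6), and the sign rested on TC replicate 1, without which the difference was -0.04. For NFE2L2 to KEAP1 the log2 difference was 0.057 (exact permutation p = 0.9). In these 3 ratios the groups overlapped, with an adjusted p-value of 0.9 for each (exact permutation test).

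**Figure D4:**
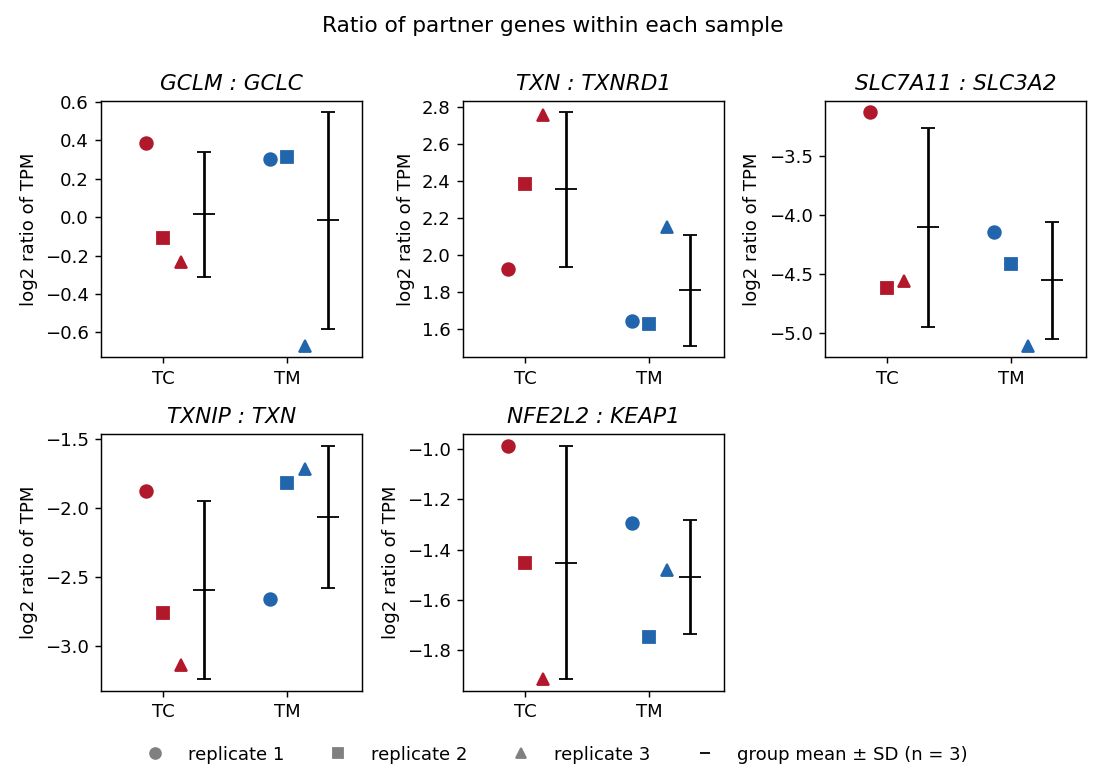
Log2 ratio of TPM of 5 pairs of partner genes (vertical axes, not from 0) in the TC (red) and TM (blue) samples, with replicate numbers as shapes and the group mean ± SD (n = 3). TXN to TXNRD1 and TXNIP to TXN have the largest log2 differences, 0.55 and -0.53, and the groups overlap in every panel.

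The wider NRF2 network was then read from the same fit. Of 70 genes in 6 lists 63 were tested, 0 were called by limma (smallest adjusted p = 0.151), and 6 had an unadjusted p-value under 0.05, which is 9.52% against 16.2% of all genes. All genes had a median log2 difference of -0.14, with 67.0% below 0. That of the 63 was -0.05, with 24 above and 39 (61.9%) below 0. TC lay wholly above TM in 5 of them and wholly below in 6, against 454 and 2617 of all 13861 genes. After median-of-ratios rescaling the split was 48 above and 15 below 0, against 7774 and 6087 of all 13861 genes. Then 11 pathway genes (17.5%) had an unadjusted p-value under 0.05 and were higher in TC, against 6.81% of all genes, with 0 called (smallest adjusted p = 0.201, limma). Quantile normalization gave 6 pathway genes at an unadjusted limma p-value under 0.05, against 1861 of all 13861 genes. List medians were then -0.016 for regulators, 0.0026 for glutathione use, -0.028 for thioredoxin and -0.018 for NADPH. They were 0.085 for detoxification and 0.13 for superoxide and peroxide. Each was below its value after median-of-ratios rescaling.

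Among the regulators of NRF2, 12 of 12 genes were tested. Of these 4 (33.3%) had an unadjusted p-value under 0.05 (limma, 0 called), against 16.2% of all genes. RBX1, the RING subunit of the KEAP1 ligase and of other cullin ligases, was at 163, 151 and 189.8 TPM in TC and 136, 127 and 89.9 TPM in TM, and every TC value was above every TM value (difference in log2 0.52 with SE 0.18, adjusted p = 0.206 by limma). GSK3B, a kinase that marks NRF2 for a second, KEAP1-independent route of degradation, was at 19.0, 17.1 and 17.0 TPM in TC and 25.3, 23.9 and 31.7 TPM in TM, with TC wholly below TM (difference in log2 -0.57 with SE 0.17, adjusted p = 0.151 by limma). MAFG, a small MAF partner of NRF2, was at 14.6, 10.6 and 9.86 TPM in TC and 18.0, 17.2 and 18.9 TPM in TM, also without overlap (difference in log2 -0.60 with SE 0.19, adjusted p = 0.182 by limma). Of the 12 regulators, 2 had TC wholly above TM and 3 wholly below, against 454 and 2617 of all 13861 genes.

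MAFK, another small MAF, named after its values were seen, was likewise lower in all TC samples (log2 difference -0.40, limma adjusted p = 0.282). KEAP1 was at 60.7, 68.0 and 59.96 TPM in TC and 81.3, 65.2 and 63.7 TPM in TM, with overlapping groups. After median-of-ratios rescaling RBX1 and MAFG kept an unadjusted p-value under 0.05 (limma unadjusted p = 0.00435 and 0.0422), whereas GSK3B and MAFK did not (0.0701 and 0.355). BACH1, a repressor that competes with NRF2 for its elements, and SQSTM1, which binds KEAP1, then came under 0.05, both higher in TC (log2 differences 0.63 and 0.45, limma unadjusted p = 0.0173 and 0.0331, adjusted p = 0.271 and 0.327). Of all genes, 6.81% were under 0.05 and higher in TC after this rescaling. As deposited, BACH1 differed by 0.44 and SQSTM1 by 0.24. Both were named after their values were seen.

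The genes of glutathione use had a median log2 difference of 0.0072 over 13 of 14 genes tested. Of these 2 (15.4%) had an unadjusted p-value under 0.05 (limma), against 16.2% of all genes. GSTM3, a glutathione transferase, was at 93.8, 108 and 111 TPM in TC and 73.5, 76.6 and 93.9 TPM in TM (difference in log2 0.36 with SE 0.14, adjusted p = 0.267 by limma), so the lowest TC and the highest TM sample were level. ABCC1, an exporter of glutathione conjugates, was lower in every TC sample, at 10.6 ± 1.70 against 15.3 ± 3.01 TPM (SD, n = 3, log2 difference -0.49, limma adjusted p = 0.306). GPX4, which reduces lipid peroxides with glutathione, was at 712, 857 and 844 TPM in TC and 689.75, 673 and 621 TPM in TM, so that TC was wholly above TM (log2 difference 0.28, limma adjusted p = 0.323). In this list TC lay wholly above TM in 1 gene and wholly below in 2, against 454 and 2617 of all 13861 genes. The other gene wholly below was GSR, named after its values were seen (log2 difference -0.38, limma adjusted p = 0.394). SLC3A2 was at 115 to 120.06 TPM in TC and 117 to 138 TPM in TM. After median-of-ratios rescaling the list's median was 0.18, and 3 genes had an unadjusted p-value under 0.05, all higher in TC, namely GSTM3, GPX4 and GLRX (limma, 0 called). All genes then had a median of 0.049, and 6.81% of them were under 0.05 and higher in TC.

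In the thioredoxin list 0 of 13 genes had an unadjusted p-value under 0.05 (limma), against 16.2% of all genes. The median log2 difference of -0.04 turned to 0.17 after median-of-ratios rescaling. There PRDX5 alone was under 0.05 (unadjusted p = 0.0292, limma), while 6.81% of all genes were under 0.05 and higher in TC. The smallest p-values were those of 3 peroxiredoxins, which break down peroxides at the expense of thioredoxin. PRDX1 had a log2 difference of -0.19, PRDX5 of 0.17 and PRDX4 of 0.17, with limma adjusted p-values of 0.473, 0.536 and 0.617. TXNIP was at 88.2, 46.3 and 46.8 TPM in TC and 47.6, 79.2 and 94.5 TPM in TM.

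The NADPH list was similar, with a median of -0.06 and 0 of 7 genes at an unadjusted p-value under 0.05 (limma), against 16.2% of all genes. This median turned to 0.14 after median-of-ratios rescaling, again with 0 genes under 0.05. TKT, transketolase of the pentose phosphate pathway, was at 374, 485 and 452 TPM in TC and 458, 465 and 291 TPM in TM (log2 difference 0.13, limma adjusted p = 0.806). RPIA and RPE, isomerase and epimerase of the same pathway, had log2 differences of -0.27 and -0.28, with limma adjusted p-values of 0.510 and 0.655.

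Of the detoxification, heme and iron genes 14 of 18 were tested, and 0 had an unadjusted p-value under 0.05 (limma), against 16.2% of all genes. After median-of-ratios rescaling 3 did, FTH1, AKR1C3 and BLVRA, all higher in TC (unadjusted p = 0.0355, 0.0175 and 0.0361, limma, 0 called). In that direction 6.81% of all genes were under 0.05. The list's median moved from -0.01 to 0.19, and that of all genes from -0.14 to 0.049. ALDH3A1 was listed at 0 in all samples, and AKR1B10, AKR1C2 and ABCC2 were too low to test. FTH1, the ferritin heavy chain, was the most abundant, at 2225 ± 359.8 TPM in TC and 1762 ± 475 TPM in TM (SD, n = 3, log2 difference 0.36, limma adjusted p = 0.458). AKR1C3 and EPHX1 had log2 differences of 0.31 and -0.31 (limma adjusted p = 0.492 and 0.498). HMOX1, heme oxygenase, named after its values were seen, was at 27.3, 27.7 and 20.5 TPM in TC and 22.6, 32.1 and 29.3 TPM in TM.

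Of the genes that handle superoxide and peroxide, 4 of 6 were tested, NOX4 was too low and SOD2 was not analysed here. CYBA, a subunit of the NADPH oxidases that make superoxide, was at 535, 579 and 541 TPM in TC and 453, 447 and 494 TPM in TM, without overlap (difference in log2 0.25 with SE 0.11, adjusted p = 0.323 by limma; unadjusted p = 0.0166 after median-of-ratios rescaling). A TC group wholly above TM was found in 3.28% of all genes. SOD1 and SOD3, superoxide dismutases, had log2 differences of -0.05 and -0.06, and the list's median of -0.03 turned to 0.18 on median-of-ratios rescaling.

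**Figure D5:**
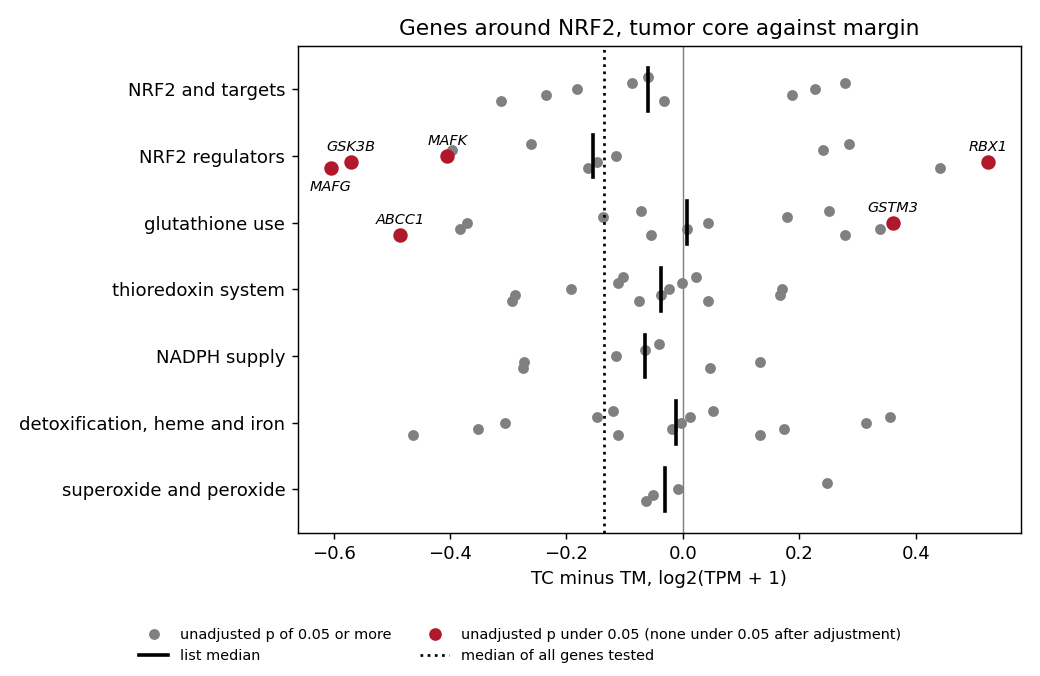
Difference between TC and TM on the log2(TPM + 1) scale (horizontal axis) for the members and for each tested gene of the 6 lists around NRF2, with black bars at list medians and a dotted line at the median of all genes tested. The 6 genes in red have an unadjusted p-value under 0.05, 0 genes are called after adjustment, and the members lie between -0.31 and 0.28.

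For each member the genes with the most similar levels were sought among 9817 genes with a mean of at least 5 TPM. Likeness was Pearson's r of log2(TPM + 1) over the 6 samples, which share libraries, and the highest of so many values over 6 points is large for any gene. NFE2L2 was most like APAF1 and TCF12 (both r = 0.990), NQO1 like HSBP1 (0.989) and POLR2J (0.985), and TXNRD1 like ECPAS (0.996) and ENSG00000258656 (0.991). TXN was most like PTRHD1 (0.971) and TPRKB (0.970), and PGD like ARMC8 (0.998) and ACLY (0.997). For GCLC these genes were GNA13 (0.994) and CMAS (0.993), for GCLM SPAG1 (0.992) and STAG1 (0.986), for SRXN1 LSM12 (0.996) and RHOJ (0.993), and for SLC7A11 SPRED1 (0.992) and ANKRD13C (0.984). None of these 18 nearest genes was another member, which with so few members among 9817 genes does not show whether the members vary together.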

How the data were processed

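RNA-seq was analysed for 3 TC and 3 TM samples, grouped by their titles. The authors deposited TPM per gene. Columns add up to 1000000, except 994381 for TM replicate 3. According to the study's methods, the reads, trimmed by SeqPrep and Sickle, were aligned with HISAT2 (hg38 per the labels), assembled with StringTie and quantified with RSEM. The annotation release and any step to separate mouse reads are not given in the sources used here. TPM keeps no depth, so the count model of the study could not be run and precision rests on replicates.

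Genes reaching 1 TPM in 3 or more of the 6 samples were tested on log2(TPM + 1) with limma 3.58.1 in R 4.3.3 (mean-variance trend, two-sided, no covariate, Benjamini-Hochberg over 13861 genes). This scale understates changes of low genes. Single ratios were tested by exact permutation (scipy 1.17.1). Positions are from GENCODE v29 (GRCh38) and promoter sequences from RefSeq (GRCh38.p14). Scripts were tested on simulated data. The members and lists were chosen with earlier results of these data known. The named genes are the members, both genes of each ratio, the called genes and the 3 smallest p-values of each list, and the 2 genes most like each member. SOD2 of the lists and MYLPF of the markers were not analysed here. A further list gene, and 1 ratio planned with it, are not reported here, and p-values were adjusted over the other 5 ratios. Alternatives were another pseudocount (0.1), 2 other filters, 3 other scalings, a replicate block, robust or trendless moderation, inclusion of 259 loci outside the annotation and leaving out each sample.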

Additional observations from a re-analysis of the deposited data

How the results depend on the processing

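Members and pathway genes called by limma stayed at 0 under all 17 alternatives. The sign of NQO1 and TXN (higher in TC) and of TXNRD1 (lower) held in all of them, and for the other members 20 values took the other sign. After median-of-ratios rescaling these were NFE2L2 (0.11), GCLC (0.14), GCLM (0.16) and PGD (0.026), with a members' median of 0.14, 2 members and 12 pathway genes at an unadjusted p-value under 0.05, and 6 genes called among all. With that rescaling 1873 of all 13861 genes were under 0.05 (limma, unadjusted, either direction). After quantile normalization the members of the other sign were NFE2L2 (0.11), GCLC (0.15) and GCLM (0.17), with a members' median of 0.15 and 4 genes called. Under that setting 0 members and 6 pathway genes had an unadjusted p-value under 0.05 (limma), against 1861 of all 13861 genes. Genes called among all numbered 19 as reported, 7 with a pseudocount of 0.1, 1 without a filter, 47 with robust moderation and 12 without a trend.

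Leaving out 1 sample gave 1 to 17 genes called, 0 to 2 members (TXNRD1 without TC replicate 1, TXNRD1 and SRXN1 without TM replicate 3) and 2 to 9 pathway genes at an unadjusted p-value under 0.05, and a members' median from -0.24 to 0.12. In these settings 1581 to 2663 of all 13861 genes were under 0.05 (limma, unadjusted). There were 2044 without TC replicate 1 and 2663 without TM replicate 3. Log2 differences ranged from -0.29 to 0.16 for NFE2L2, -0.25 to 0.065 for GCLC, -0.39 to 0.21 for GCLM, -0.15 to 0.52 for SLC7A11, 0.078 to 0.27 for NQO1, 0.11 to 0.30 for TXN, -0.48 to -0.22 for TXNRD1, -0.42 to -0.099 for SRXN1 and -0.27 to -0.12 for PGD. Those of the log2 ratios ranged from -0.29 to 0.197 for GCLM to GCLC, -0.036 to 0.71 for SLC7A11 to SLC3A2, -0.18 to 0.29 for NFE2L2 to KEAP1, 0.34 to 0.76 for TXN to TXNRD1 and -0.88 to -0.25 for TXNIP to TXN. Among the values of the other sign were GCLM (0.086) and GCLC (0.00041) without TC replicate 2, NFE2L2 (0.12) without TM replicate 1 and GCLM (0.12) without TM replicate 2. With TM replicates 1 and 2 left out, an alternative chosen after seeing the data because of their muscle markers, 1 TM sample remained, which is assumed to vary like TC. Then 195 genes were called, 1 member (NQO1) had an unadjusted p-value under 0.05, and NFE2L2 (0.013), GCLC (0.039), GCLM (0.67) and SRXN1 (0.13) were above 0.

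Same-numbered samples did not all deviate together (r of deviations across genes 0.21, -0.12 and -0.16 for replicates 1, 2 and 3). The highest r, 0.32, was between TC replicate 3 and TM replicate 2. With only 3 samples per group these values cannot decide which samples are pairs. Whether same-numbered samples came from 1 mouse is not given in the sources used here, so the numbers were not used as pairs. With the replicate block 1 gene was called and 0 members. The cause of these shifts was not tested.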

Other observations

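Genes that act beside GPX4 in ferroptosis, iron-driven death by lipid peroxidation, were read from the same fit with a list chosen after seeing the data. Of 10 genes 9 were tested, limma called 0, and 1 had an unadjusted p-value under 0.05, against 16.2% of all genes. AIFM2, which encodes the ubiquinone reductase FSP1, was at 28.3 ± 2.39 TPM in TC and 37.5 ± 2.12 TPM in TM (SD, n = 3, difference in log2 -0.39 with SE 0.14, adjusted p = 0.222 by limma), with every TC sample below every TM sample. A TC group wholly below TM was found in 2617 of all 13861 genes. ACSL4, which loads polyunsaturated fatty acids onto coenzyme A, had a log2 difference of 0.34 (limma adjusted p = 0.577). With median-of-ratios rescaling AIFM2 differed by -0.19 (unadjusted p = 0.312, limma), and ACSL4, higher in TC by 0.54, was the one gene of the list under 0.05 (unadjusted p = 0.027, adjusted p = 0.309, limma). Of all genes, 6.81% were then under 0.05 and higher in TC. A list of relatives of the members, also outside the 6 lists, held 8 genes. Of these 6 were tested, limma called 0, and 2 (SLC7A6 and SLC7A1) had an unadjusted p-value under 0.05. SLC7A6 was at 10.9 ± 0.650 TPM in TC and 23.2 ± 4.45 TPM in TM (SD, n = 3, a fitted ratio of 0.499-fold with a 95% interval from 0.369-fold to 0.676-fold, adjusted p = 0.0843 by limma), and SLC7A1 had a log2 difference of -0.54 (limma adjusted p = 0.152). With median-of-ratios rescaling they differed by -0.80 and -0.34. SLC7A5, SLC7A2 and TXNRD3 had limma adjusted p-values of 0.550, 0.885 and 0.966 as deposited. NFE2L3, a relative of NRF2, averaged 46.5 ± 8.32 TPM in TC and 43.0 ± 7.05 TPM in TM (SD, n = 3; difference in log2 0.11, adjusted p = 0.839 by limma).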
